A study of Mus musculus with 8 samples.

Results

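Replication-dependent histone genes encode the linker histone H1 and the core histones H2A, H2B, H3 and H4 that package newly made DNA. Members were taken by symbol: rows of the deposited table named Hist1h to Hist4h, or spelled in the newer way (H1f and a digit, for example), with an RPKM above 0 in at least 2 libraries. RPKM is the number of reads of a gene scaled by the length over which it was counted and by the total reads of the library. Of 70 rows with such a symbol, 65 were members, out of 27179 genes in the table. The other 5 rows were Hist1h2aa, Hist1h2af, Hist1h2ba and Hist1h3b, which were at 0 in all 8 libraries, and Hist1h2ah, which was above 0 in 1 library. At the edge of the rule, 3 members were above 0 in exactly 2 libraries, and 41 members were above 0 in all 8. The members comprised 7 H1, 16 H2A, 18 H2B, 11 H3 and 13 H4 genes.

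Sequencing was done on mRNA of CD4+ T cells isolated by negative selection, and according to the methods of the study then sorted by flow cytometry, from the spleen of mice aged 8 weeks, of the strain C.Cg-Foxp3tm2Tch/J, which carries a green fluorescent reporter at the Foxp3 gene. The parents had drunk water with 10 ppm CdCl2 (Cd offspring) or unspiked water (control offspring). Cells were lysed at once (unstimulated, 0 h) or stimulated for 16 h in culture with beads that bind CD3 and CD28, which mimics contact with antigen. No library came from cells cultured without beads, so effects of stimulation and of time in culture cannot be told apart. Each of the 4 groups had 2 libraries, numbered replicates 6 and 7, made with a kit that captures polyadenylated RNA. The series asks how prenatal cadmium alters T cells and their response to stimulation. The reads counted on genes were 17985243 and 16299663 in unstimulated and 15542732 and 19449725 in stimulated control cells. They were 19419451 and 20538306 in unstimulated and 21987821 and 25486791 in stimulated Cd cells. Values of a gene are given below in the order replicate 6, replicate 7.

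Histone mRNA of these genes is made mainly in S phase, when the cell copies its DNA. As a rule it is not polyadenylated: it ends shortly after a stem-loop that the protein SLBP binds, and it is cut there with the help of the U7 small nuclear RNA. Some of the genes also give polyadenylated transcripts that run past the stem-loop, mostly in cells that do not divide. Resting T cells rarely divide, and stimulated T cells leave that state and enter the cell cycle. In libraries from polyadenylated RNA, the values cover the polyadenylated histone transcripts and whatever other histone RNA the capture carried along.

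The labelled cell type was checked against markers. All 6 T cell genes were abundant, led by Cd3e with a mean of 381.8 RPKM, and summed to 2010 and 1960 RPKM in unstimulated and 1270 and 1280 RPKM in stimulated control cells. In Cd offspring they summed to 1860 and 1910 against 1310 and 1290 RPKM. Of the 3 regulatory T cell genes, the activation marker Il2ra rose by 5.76 in control and 5.47 in Cd offspring on the log2 scale. Foxp3, with a mean of 5.91 RPKM, was higher without overlap in stimulated cells of both offspring. Its log2 fold changes of 0.41 and 0.68 were under the 2-fold limit, and Ikzf2 overlapped in both offspring. Of the other lists, Cd8a had a mean of 0.107 RPKM but Cd8b1 one of 10.4 RPKM, above the mean of every histone member, the B cell gene Ms4a1 was at 0 in all libraries (Cd79a 3.78 RPKM) and so was the erythroid gene Hba-a1 (Alas2 1.1 RPKM). Alas2 and Cd8b1 were not called, and Cd79a was higher without overlap in stimulated cells of both offspring but under the 2-fold limit (log2 fold changes of 0.41 and 0.57). Some natural killer and myeloid genes were lower in stimulated cells, as many histone genes were, and so was the B cell gene Cd79b, too scarce to be tested, at 0.278 and 0.256 against 0.161 and 0.0429 RPKM in control and at 0.387 and 0.325 against 0.19 and 0.164 RPKM in Cd offspring. Of 3 natural killer cell genes, Klrb1c, the most abundant with a mean of 2.11 RPKM, and Klrk1 fell (log2 fold changes of −3.83 and −2.56 in control offspring, and of −3.62 and −2.49 in Cd offspring), and the defining marker Ncr1 was at 0 in 7 of 8 libraries. The summed level of the 3 genes was 6.14 and 6.21 RPKM in unstimulated and 0.323 and 0.59 RPKM in stimulated control cells, and 4.79 and 6.47 against 0.463 and 0.507 RPKM in Cd cells. Of 4 myeloid genes, Itgam fell (−2.27 and −2.03), Cd68 was the most abundant with a mean of 4.08 RPKM, and Lyz2 was at 0 in 5 of 8 libraries. With 1 RPKM added before taking logs, the log2 fold change of Itgam in Cd offspring was −0.98, under the 2-fold limit. The summed myeloid level was 6.23 and 6.61 RPKM in unstimulated and 3.16 and 3.49 RPKM in stimulated control cells, and 7.8 and 7.57 against 4.31 and 3.22 RPKM in Cd cells. The part of these cells in the histone results was not tested. In bulk libraries, fewer cells of a type and less RNA per cell cannot be told apart.

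Histone mRNA was scarce in all 8 libraries. Reads of the 65 members made up 0.0124% and 0.0121% of all reads in unstimulated control cells and 0.00663% and 0.00671% in stimulated control cells. In Cd offspring the share was 0.0132% and 0.0105% before and 0.00722% and 0.00711% after stimulation. Every stimulated library was below every unstimulated library. The Wilson 95% intervals of these shares, which cover counting error alone, reached up to 0.00758% in a stimulated and down to 0.01% in an unstimulated library. The most abundant member was the H2A gene Hist3h2a, with a mean of 9.90 RPKM over the 8 libraries, followed by the linker histone gene H1f0 with 8.75 RPKM. To be tested, a gene needed a mean of at least 0.5 RPKM, which 32 members reached and 33 did not. Just inside this limit were Hist2h2ab with 0.539 and Hist1h1a with 0.58 RPKM, and just outside were Hist1h3f and Hist1h2bh, both with 0.484 RPKM. The tested members had a median of the mean level of 1.69 RPKM, against 11.2 RPKM over all 12605 genes tested, and 21 of the 32 had fewer than 20 reads per library on average. A scarce member could pass the limit through the group in which it was high, so the counts below describe the tested members and not all members.

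Summed over all members of a type, including those not tested, every type had a lower mean level in stimulated than in unstimulated cells. H1 genes summed to 23.8 and 23.3 RPKM in unstimulated and 14.7 and 14.5 RPKM in stimulated control cells, and to 23.5 and 16.9 against 15 and 15.5 RPKM in Cd cells. H2A genes summed to 31.9 and 32.7 against 13.8 and 14.4 RPKM in control cells, and to 38.5 and 23.3 against 17.6 and 15.6 RPKM in Cd cells. H2B genes summed to 23.7 and 20.9 against 10.2 and 8.71 RPKM in control cells, and to 24.6 and 22.9 against 9.88 and 10.2 RPKM in Cd cells. In H1, H2A and H2B the stimulated and unstimulated libraries did not overlap in either offspring. H4 genes summed to 26.6 and 25.8 against 9.03 and 12.6 RPKM in control cells, and to 26.3 and 24.7 against 13.4 and 16.4 RPKM in Cd cells, again without overlap. H3 genes, which encode the histone with the most studied tail modifications, summed to 9.26 and 7.89 against 5.59 and 6.82 RPKM in control cells, and to 8.78 and 6.32 against 7.14 and 5.86 RPKM in Cd cells. H3 was the type whose libraries overlapped, in Cd offspring.

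The log2 ratio of the stimulated to the unstimulated mean in control offspring was −0.69 for H1, −1.2 for H2A, −1.24 for H2B, −0.47 for H3 and −1.28 for H4. In Cd offspring it was −0.41, −0.90, −1.25, −0.21 and −0.77 in the same order. These sums have no test. The H1 sum rested on H1f0, which held 47.6% of it: without H1f0 the ratio was −1.38 in control and −1.06 in Cd offspring. Without Hist3h2a, which held 42.2% of the H2A sum, the H2A ratio in Cd offspring was −0.50. The 2 unstimulated Cd libraries differed from each other in H1, H2A and H3, with higher values in replicate 6. Without that replicate, the ratios in Cd offspring were −0.15 for H1, −0.49 for H2A and 0.041 for H3, and without replicate 7 they were −0.62, −1.22 and −0.43.

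**Figure D1:**
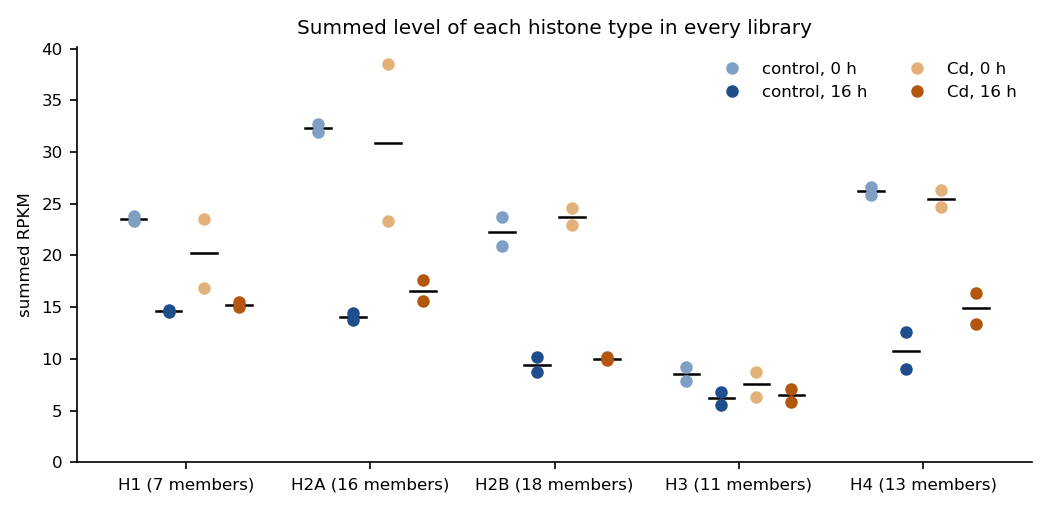
Summed RPKM (vertical axis) of the members of each histone type in every library, by group. Points are libraries and lines are group means over 2 libraries; the H4 sums are between 24.7 and 26.6 RPKM in unstimulated and between 9.03 and 16.4 RPKM in stimulated cells.

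In control offspring, many histone genes had a lower RPKM in stimulated than in unstimulated cells. RPKM is scaled to the total reads of a library, so these values do not measure histone mRNA per cell. Of 32 members tested, 13 fell past the threshold (limma, adjusted p under 0.01 and a change over 2-fold) and 0 rose. Voom, a second method on the recovered reads, called 10 as lower and 0 as higher, and at an unadjusted p under 0.05 in limma 19 were lower and 0 higher (59.4% of the members, against 67.8% of all genes tested in either direction). Over all genes tested, 18.7% were called in either direction, 7.17% as lower and 11.5% as higher, and 37.2% were lower without overlap between the libraries. Without overlap, 23 of the 32 members were lower and 0 were higher. The members had a median log2 fold change of −1.11, and all genes tested one of 0.07. By type, 2 of 4 H1, 3 of 9 H2A, 3 of 5 H2B, 0 of 4 H3 and 5 of 10 H4 genes fell. At an unadjusted p under 0.05 in limma, 1 of the 4 H3 genes passed, and voom called 0 of them. The p-values measure the spread between these libraries, since the labels do not say whether the replicates were separate animals. The study states that mating in pairs made each litter a separate exposure and biological replicate, but does not tie these libraries to litters.

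The linker histones, which bind the DNA between nucleosomes, differed from each other. Hist1h1c (newer symbol H1f2, NCBI gene 50708, chr13:23738807-23739531 on the plus strand of GRCm38.p6) was at 10.9 and 10.3 RPKM in unstimulated and at 3.38 and 2.83 RPKM in stimulated control cells. It was at 11.5 and 8.08 RPKM in unstimulated and at 3.44 and 3.8 RPKM in stimulated Cd cells. All 4 stimulated libraries were thus below the lowest unstimulated library. The mean fell from 10.6 ± 0.428 (SD, n = 2) to 3.11 ± 0.387 RPKM in control offspring, a log2 fold change of −1.74 with a standard error of 0.17 and a limma adjusted p of 6.69e-05. H1f0, the replacement linker histone that accumulates in cells that have stopped dividing and that is described here because its symbol fits the rule, was at 9.84 and 9.55 RPKM in unstimulated and at 9.12 and 9.46 RPKM in stimulated control cells. Its log2 fold change was −0.06 (adjusted p = 0.597), although its stimulated libraries were both below the unstimulated ones. Hist1h1e, another linker histone gene of the large cluster, was at 1.67 and 2.1 RPKM in unstimulated and at 1.8 and 1.94 RPKM in stimulated control cells. Its groups overlapped, and its log2 fold change of −0.0013 (adjusted p = 0.996) became 0.012 by voom, 0.052 without replicate 6 of the stimulated control cells and 0.15 without replicate 7 of the unstimulated control cells. In Cd offspring Hist1h1e was at 2.21 and 1.54 against 2.19 and 2.32 RPKM, with overlap. Its log2 fold change there of 0.27 (adjusted p = 0.262) was between 0.024 and 0.522 with each library left out. Hist1h1a was at 0.968 and 1.07 RPKM before and at 0.0861 and 0 RPKM after stimulation, which were 26 reads in the 2 unstimulated and 1 read in the 2 stimulated libraries. Its ratio was 26.5 with an exact 95% interval of 4.36 to 1090, which covers counting error alone, and the fitted log2 fold change of −3.03 (adjusted p = 0.00157) depended on the added constant. Hist1h1a was no longer called without replicate 7 of the stimulated control cells (adjusted p = 0.0105) or of the unstimulated control cells (adjusted p = 0.0117).

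Among the H2A genes, whose product pairs with H2B in the nucleosome, Hist3h2a (newer symbol H2aw, NCBI gene 319162, chr11:58954685-58955192, plus strand) was at 14.0 and 13.8 RPKM in unstimulated and at 5.33 and 5.37 RPKM in stimulated control cells. In Cd offspring it was at 17.3 and 12.7 against 5.51 and 5.26 RPKM. The 4 stimulated libraries lay between 5.26 and 5.51 RPKM, and all were below the lowest unstimulated library. The log2 fold change in control offspring was −1.36 with a standard error of 0.13 (limma, adjusted p = 6.52e-05). Hist2h2ac was at 2.99 and 2.67 RPKM in unstimulated and at 0.66 and 0.791 RPKM in stimulated control cells, without overlap, and fell by 1.83 on the log2 scale (adjusted p = 0.00241). That call was lost without replicate 6 (adjusted p = 0.0176) or 7 (0.0126) of the unstimulated control cells and without replicate 6 of the stimulated control cells (0.0168). Hist2h2aa2 was at 3.82 and 3.59 against 1.8 and 1.18 RPKM and fell by 1.29 on the log2 scale (adjusted p = 0.00188), a call lost without replicate 6 (0.0142) or 7 (0.0108) of the unstimulated or replicate 7 of the stimulated control cells (0.0105). Its near-identical neighbour Hist2h2aa1 was at 3.56 and 5.2 against 0.891 and 2.31 RPKM, with a log2 fold change of −1.51 that was not called (adjusted p = 0.0341) and was between −2.15 and −0.87 with each library left out. The remaining 5 tested H2A genes lay between a log2 fold change of −1.13 (Hist2h2ab, −1.99 to −0.28 with each library left out) and 0.20 (Hist1h2ao), and none was called.

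Among the H2B genes, Hist1h2bc (newer symbol H2bc4, NCBI gene 68024, chr13:23684199-23692480, plus strand) was at 5.73 and 4.89 RPKM in unstimulated and at 1.24 and 1.13 RPKM in stimulated control cells. In Cd offspring it was at 6.08 and 6.29 against 2.0 and 1.4 RPKM. Every stimulated library was at 2.0 RPKM or less, and every unstimulated one at 4.89 RPKM or more. Its log2 fold change of −2.07 in control offspring, with a standard error of 0.18 and an adjusted p of 3.35e-05 in limma, had the lowest adjusted p of the tested members. Hist3h2ba was at 6.37 and 5.44 against 2.91 and 2.07 RPKM in control offspring and fell by 1.23 on the log2 scale (adjusted p = 0.000659). Without replicate 7 of the stimulated control cells, its log2 fold change was −0.99, under the 2-fold limit. Hist2h2be, the H2B gene with the highest mean level, was at 5.12 and 5.2 against 3.47 and 3.1 RPKM. Its groups did not overlap and its adjusted p was 0.000964, but its log2 fold change of −0.64 was under the 2-fold limit. The transcribed pseudogene Hist3h2bb-ps was at 1.79 and 0.396 against 0 and 0.111 RPKM, or 18 reads against 1 read, a ratio of 18.4 (exact 95% interval 2.9 to 765). It was called at an adjusted p of 0.00994 and lost that call when any library other than replicate 7 of the unstimulated control cells was left out, with an adjusted p between 0.0134 and 0.0595.

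No H3 gene was called. Hist1h3e, the most abundant, was at 2.84 and 2.69 RPKM in unstimulated and at 1.41 and 2.38 RPKM in stimulated control cells, without overlap. Its log2 fold change of −0.57 (adjusted p = 0.086) was between −0.92 and −0.21 with each library left out. Hist1h3a was at 1.56 and 0.919 against 1.33 and 1.25 RPKM, with overlap, and its log2 fold change of 0.09 turned to −0.26 with replicate 7 of the unstimulated cells left out. Hist2h3b, described after its values were seen, was at 1.62 and 1.94 against 1.25 and 0.5 RPKM, without overlap, with a log2 fold change of −1.06 (adjusted p = 0.0432). Without replicate 6 of the stimulated control cells Hist2h3b was called, with a log2 fold change of −1.64 (adjusted p = 0.00467), and without replicate 7 it was at −0.47 (0.228).

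H4 genes, most of which encode the same protein, spanned a wide range. Hist1h4c was at 3.74 and 4.92 RPKM in unstimulated and at 1.24 and 0.824 RPKM in stimulated control cells, without overlap, and fell by 1.98 on the log2 scale (standard error 0.31, limma adjusted p = 0.000898). Hist1h4i was at 4.25 and 4.46 against 2.04 and 1.72 RPKM and fell by 1.17 on the log2 scale (adjusted p = 0.00212). Hist1h4d, the most abundant H4 gene, was at 3.03 and 4.52 against 2.68 and 3.13 RPKM, with overlap. Its log2 fold change of −0.34 (adjusted p = 0.23) was between −0.625 and −0.062 with each library left out. Of the abundant H4 genes, Hist1h4c and Hist1h4i were thus lower in both stimulated libraries, and Hist1h4d was not separated. Hist1h4n was at 2.49 and 1.18 against 0.206 and 0.165 RPKM, or 20 reads against 2 reads, a ratio of 10.2 with an exact 95% interval of 2.48 to 90.1 (adjusted p = 0.000499). Hist1h4m was at 1.37 and 1.21 against 0.477 and 0.635 RPKM, with a log2 fold change of −1.09 (adjusted p = 0.00529). The call of Hist1h4i was lost without replicate 6 (adjusted p = 0.0122) or 7 (0.0153) of the unstimulated or replicate 7 (0.0158) of the stimulated control cells, and that of Hist1h4m without any of the 4 control libraries (0.0104 to 0.0345). Hist2h4, named although it lay outside the rule for named genes, was at 2.88 and 2.82 against 0.74 and 1.48 RPKM, with a log2 fold change of −1.36 (adjusted p = 0.00995). It lost its call without either unstimulated control library (0.0451 and 0.0422), replicate 6 of the stimulated control cells (0.0542) or either stimulated Cd library (0.0123 and 0.0122). Hist1h4h and Hist1h4k, not called with log2 fold changes of −1.63 and −1.58, were called without replicate 7 of the stimulated control cells (−2.36 and −2.12), and Hist1h4k also without either stimulated Cd library (adjusted p of 0.00732 and 0.0078), but were at −0.90 and −1.04 without replicate 6 of the stimulated control cells.

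The number of 13 members rested on low levels and on single libraries. With a replicate block by number, Hist2h4 and Hist3h2bb-ps lost and Hist1h4h gained a call. With a block within exposure, Hist1h4m and Hist3h2bb-ps lost and Hist2h2aa1 gained one. With 1 instead of 0.1 RPKM added before taking logs, 6 members were called, all of them among the 13: Hist1h1c, Hist1h2bc, Hist1h4c, Hist1h4n, Hist2h2ac and Hist3h2a. Without replicate 6 or without replicate 7 of the unstimulated control cells, 7 members were called. The 5 members called with each library left out in turn were Hist1h1c, Hist3h2a, Hist1h2bc, Hist1h4c and Hist1h4n. The 33 members below the limit of the test summed to 10.8 and 8.93 RPKM in unstimulated and to 3.96 and 6 RPKM in stimulated control cells, a log2 ratio of −0.98.

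**Figure D2:**
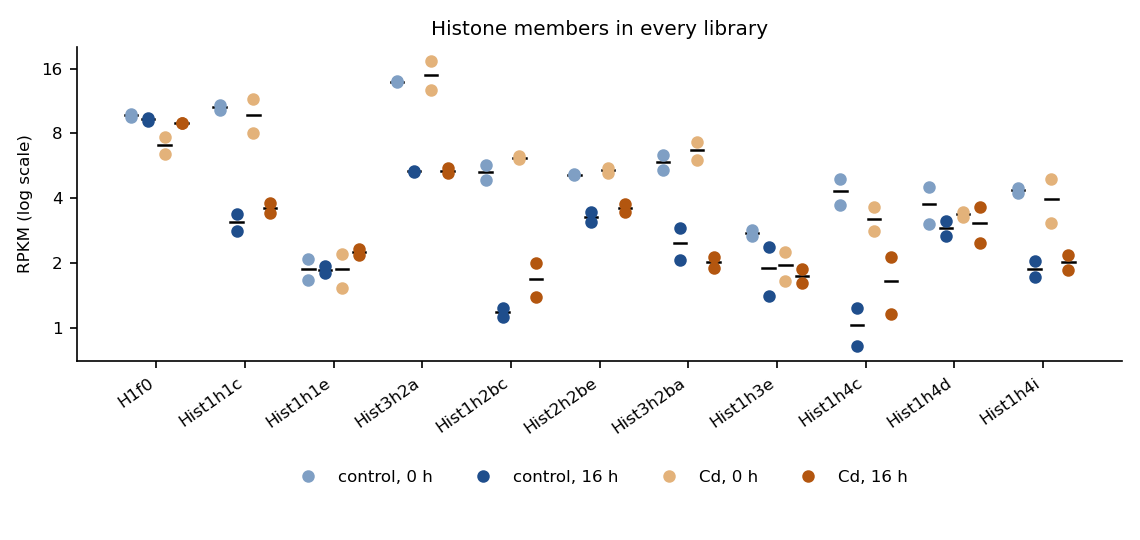
RPKM on a log scale (vertical axis) of 11 histone members in every library, by group; points are libraries and lines are group means over 2 libraries. Hist1h1c, Hist3h2a, Hist1h2bc and Hist3h2ba are lower in all 4 stimulated libraries than in any unstimulated library, while H1f0 and Hist1h1e are not.

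In Cd offspring some of the same genes fell. Hist1h1c fell by 1.39 on the log2 scale (standard error 0.17, limma adjusted p = 0.000228), Hist3h2a by 1.44 (adjusted p = 4.85e-05) and Hist1h2bc by 1.82 (adjusted p = 6.67e-05). Hist3h2ba was at 7.31 and 6.05 RPKM in unstimulated and at 1.91 and 2.15 RPKM in stimulated Cd cells and fell by 1.67 on the log2 scale (adjusted p = 0.000128). These 4 genes were also called with each library left out in turn. Of 32 members tested, 6 fell (18.8%) and 0 rose, where 18.6% of all genes tested were called in either direction, 7.24% as lower and 11.4% as higher. Without overlap, 16 members were lower, against 38.4% of all genes tested, and 3 were higher. The share of all genes higher without overlap is not given, so the 3 have no comparison. The median log2 fold change was −0.73 over the members and 0.05 over all genes tested. By type, 1 of 4 H1, 2 of 9 H2A, 2 of 5 H2B, 0 of 4 H3 and 1 of 10 H4 genes fell. At an unadjusted p under 0.05 in limma, 14 members were lower and 2 were higher (16 of 32 in either direction, against 69.0% of all genes tested), and 0 of the H3 genes passed. Voom called 6 members as lower, 0 as higher and 0 of the H3 genes.

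The other 2 genes called in Cd offspring were Hist2h2aa2 and Hist1h4m. Hist2h2aa2 was at 3.41 and 2.6 RPKM in unstimulated and at 1.16 and 1.5 RPKM in stimulated Cd cells, with a log2 fold change of −1.12 (adjusted p = 0.00388). Hist1h4m was at 1.27 and 0.962 against 0.449 and 0.388 RPKM, with a log2 fold change of −1.22 (adjusted p = 0.0031). Neither gene had overlapping groups. Both calls ended without replicate 6 of the stimulated Cd cells (adjusted p of 0.0277 and 0.0126) and without replicate 6 of the unstimulated Cd cells (0.0263 and 0.0233), and that of Hist1h4m also without replicate 7 of the stimulated Cd cells (0.0217). Voom called neither of these 2 genes, and called Hist1h1a and Hist3h2bb-ps in their place. Hist1h1a was at 1.59 and 0.587 RPKM in unstimulated and at 0.244 and 0.105 RPKM in stimulated Cd cells (log2 fold change −2.02, adjusted p = 0.0115), and was called without replicate 7 of the unstimulated Cd cells (0.00628) or with either replicate block. Hist1h4c was at 3.63 and 2.81 against 1.17 and 2.14 RPKM, without overlap, with a log2 fold change of −0.97 (adjusted p = 0.0268). It was called without replicate 7 of the stimulated Cd cells (−1.38), and was between −1.38 and −0.56 with each library left out. Hist1h4i was at 3.07 and 4.9 against 1.86 and 2.19 RPKM, with a log2 fold change of −0.91 (adjusted p = 0.0075), under the 2-fold limit. It passed that limit without replicate 6 of the unstimulated Cd cells (−1.24), and was between −1.24 and −0.58 with each library left out. Hist2h2be was again lower by less than 2-fold, at 5.25 and 5.54 against 3.75 and 3.46 RPKM, with a log2 fold change of −0.57 (adjusted p = 0.00181).

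The tested members that were higher without overlap in stimulated Cd cells were H1f0, Hist1h2ap and Hist2h3b, the latter pair named after their values were seen. None of the 3 was called, and they are described without a share of all genes that were higher without overlap. H1f0 was at 7.73 and 6.41 RPKM in unstimulated and at 8.91 and 8.95 RPKM in stimulated Cd cells (log2 fold change 0.34, adjusted p = 0.0156). Hist1h2ap was at 0.786 and 0.496 against 1.27 and 1.3 RPKM (0.93, 0.0571), and Hist2h3b at 0.752 and 0.474 against 1.22 and 1.15 RPKM (0.87, 0.0801). Hist1h2ao was called as higher without replicate 6 of the unstimulated Cd cells, with a log2 fold change of 1.42 (adjusted p = 0.00423) against 0.66 with all libraries, and turned to −0.093 without replicate 7. Hist1h3e was at 2.26 and 1.66 against 1.88 and 1.62 RPKM, Hist1h3a at 1.83 and 0.821 against 1.36 and 1.32 RPKM, and Hist1h4d at 3.47 and 3.28 against 2.48 and 3.65 RPKM. In each of these 3 genes the groups overlapped, and each had a log2 fold change between −0.16 and 0.11. These turned with 1 library left out: Hist1h3e was at 0.071 without replicate 6 and Hist1h3a at −0.42 without replicate 7 of the unstimulated Cd cells, and Hist1h4d at 0.11 without replicate 6 of the stimulated Cd cells.

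**Figure D3:**
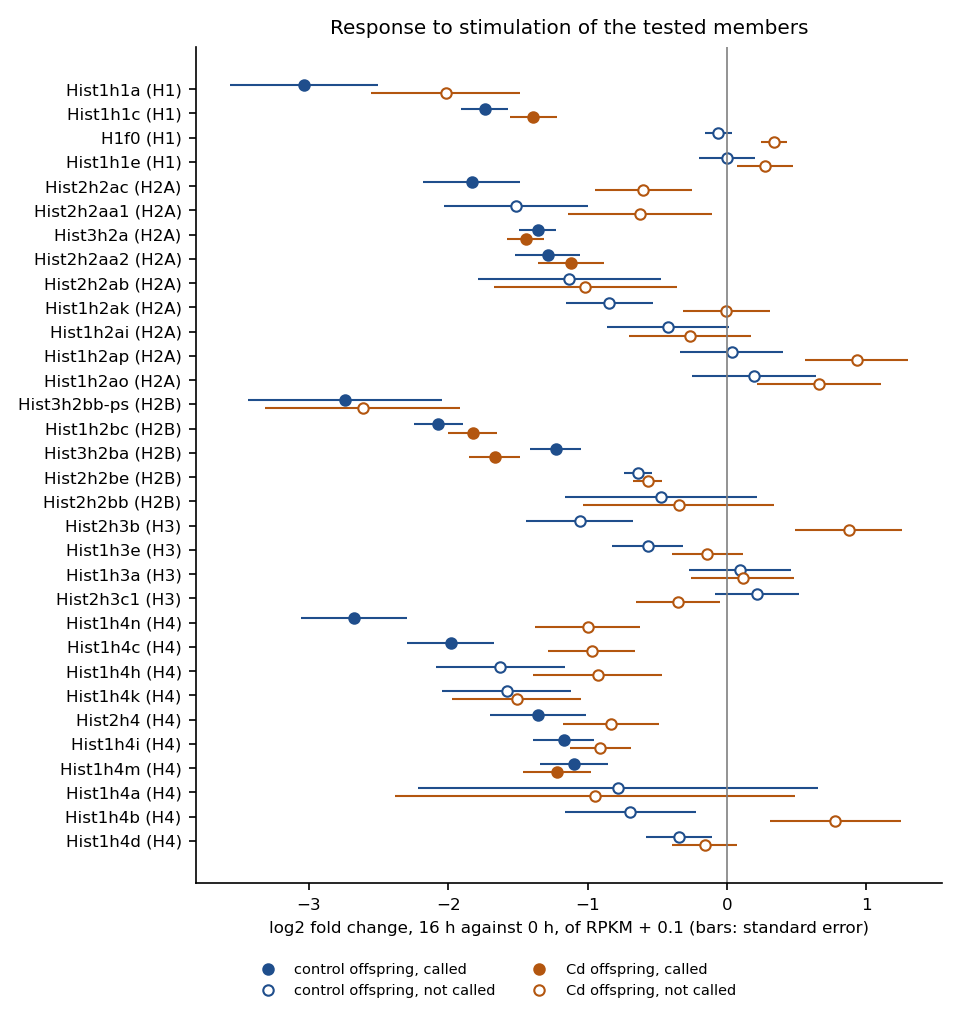
Log2 fold change of stimulated against unstimulated cells for the 32 tested members (horizontal axis, fitted on RPKM + 0.1), in control and in Cd offspring, ordered by histone type. Bars are standard errors of the fit, and filled points mark the 13 members called in control and the 6 called in Cd offspring.

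All 6 members called in Cd offspring were among the 13 called in control offspring, which is 46.2% of the 13. The matching share over all genes called is not given, so the 46.2% has no comparison. Lower without overlap in both offspring were 15 members (46.9%), against 31.5% of all genes tested. The 7 members called in control offspring alone were Hist1h1a, Hist2h2ac, Hist3h2bb-ps, Hist1h4c, Hist1h4i, Hist1h4n and Hist2h4. None of them passed the test of the difference itself. The log2 difference between the responses (Cd minus control) was 1.68 for Hist1h4n (adjusted p = 0.349), 1.23 for Hist2h2ac (0.441), 1.01 for Hist1h1a (0.646) and 1.01 for Hist1h4c (0.477). It was 0.52 for Hist2h4 (0.711), 0.27 for Hist1h4i (0.765) and 0.12 for Hist3h2bb-ps (0.97). Over the 32 members, limma called 0 for this difference, where 0.357% of all genes were called, and voom called 0. At an unadjusted p under 0.05, 4 members passed (12.5%, against 10.6% of all genes tested), and the lowest adjusted p was 0.287. The fitted difference was above 0 in 27 of the 32 members, with a median of 0.27 (0.13 to 0.53 with each library left out) against −0.01 over all genes tested. The responses of the offspring share no library, and the difference is computed from both.

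In unstimulated cells, limma called 0 of the 32 members between Cd and control offspring, where 0.896% of all genes tested were called. At an unadjusted p under 0.05, 2 members passed (6.25%, against 13.9% of all genes tested). The lowest adjusted p was 0.105, for H1f0, whose log2 difference (Cd minus control) was −0.46 with a standard error of 0.10 and whose unstimulated Cd libraries were both below the control libraries. Voom called 1 member, H1f0, with a log2 difference of −0.47 (adjusted p = 0.0425), and limma called it without replicate 6 of the unstimulated Cd cells (−0.59, 0.0403). The other member that passed at an unadjusted p under 0.05 was Hist2h3b, with a log2 difference of −1.42 (adjusted p = 0.186). Of the 6 genes called for stimulation in both offspring, 3 had log2 differences of −0.13 (Hist1h1c, adjusted p = 0.762), 0.09 (Hist3h2a, 0.779) and 0.22 (Hist1h2bc, 0.606). The others were at −0.31 (Hist2h2aa2, adjusted p = 0.591), −0.20 (Hist1h4m, 0.743) and 0.17 (Hist3h2ba, 0.705). The unstimulated Cd libraries of Hist2h2aa2 were both below the control libraries. The median over the members was −0.06, against 0.01 over all genes tested, and was between −0.33 and 0.085 with each library left out.

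In stimulated cells, limma called 0 of the 32 members between Cd and control offspring, and 0.0% of all genes tested, with 5 members (15.6%) at an unadjusted p under 0.05, against 3.28% of all genes tested, and 0 called by voom. The lowest adjusted p among the members was 0.919, for Hist1h4n, which was at 0.206 and 0.165 RPKM in control and at 0.729 and 0.88 RPKM in Cd cells, a log2 difference of 1.66. Hist2h2ac was at 0.66 and 0.791 RPKM in control and at 2.22 and 1.41 RPKM in Cd cells, a log2 difference of 1.18. In both genes the groups did not overlap. The median log2 difference was 0.24 over the members and −0.01 over all genes tested. Of the 32 differences, 24 were above 0. The H4 sum had a log2 ratio of 0.47 between Cd and control offspring, and of 0.25 without replicate 6 and 0.72 without replicate 7 of the stimulated control cells.

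Most members carried the sequence that forms the stem-loop, which the rule did not use. In GENCODE M21 transcripts, the letters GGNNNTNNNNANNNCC with paired stem bases were found in 45 of the 65 members, against 657 of 55380 other genes (1.19%). The form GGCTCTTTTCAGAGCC occurred in 25 members, of the types H1, H2A, H2B and H3, while 7 H4 genes had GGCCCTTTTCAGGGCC. In 23 members the annotated transcript ran more than 100 bases past the stem-loop, and in 22 it ended within 100 bases. The sequences of 9 of these members, all named above, are shown with the paired stem in capitals and the loop between them, 5′ to 3′ on the transcript strand.
Hist1h1c: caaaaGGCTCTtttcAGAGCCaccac
Hist1h1e: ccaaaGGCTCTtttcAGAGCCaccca
Hist3h2a: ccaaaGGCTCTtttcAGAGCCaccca
Hist3h2ba: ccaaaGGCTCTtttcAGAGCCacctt
Hist2h2ac: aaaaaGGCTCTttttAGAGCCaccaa
Hist1h3e: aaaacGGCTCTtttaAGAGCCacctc
Hist1h4c: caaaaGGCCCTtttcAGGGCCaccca
Hist1h4i: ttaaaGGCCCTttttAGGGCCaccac
Hist1h4n: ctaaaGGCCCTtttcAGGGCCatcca
Past these sites the annotated transcript ran another 840 bases in Hist1h1c, 1153 in Hist1h1e, 1643 in Hist3h2a, 169 in Hist3h2ba, 369 in Hist1h3e, 454 in Hist1h4c and 330 in Hist1h4i, but 57 in Hist2h2ac and 31 in Hist1h4n. No such site was found in the transcripts of H1f0, Hist1h1a, Hist1h2bc or Hist2h2be. Of 11 tested members with a longer end, 6 fell in control and 3 in Cd offspring, and their mean level had a median of 2.56 RPKM. Of 10 tested members that ended within 100 bases, 4 and 2 fell, with a median level of 1.27 RPKM. Of 11 tested members in whose annotated transcripts the site was not found, 3 and 1 fell, with a median level of 0.901 RPKM. These 11 include Hist1h2ai, Hist1h2ak, Hist2h2bb and Hist1h4k, whose longest annotated transcript was only as long as the coding region. A site past the stop codon could not be found in them, so this group mixes missing sites with short annotation. The median log2 fold change in control offspring was −1.17, −1.19 and −1.06 in the same order, and in Cd offspring −0.91, −0.61 and −0.57. Both kinds of transcript end thus held genes that fell and genes that did not pass the test.

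What was counted differed between members. The length recovered from the deposited values equalled the coding region in 27 members, so that bases past the stop codon did not count there. It was the coding region with short flanks in 17 members and over 600 bases in 21. Among the tested members, 4 of 14 counted over the coding region alone, 4 of 9 with short flanks and 5 of 9 counted over more than 600 bases fell in control offspring, and 1, 1 and 4 fell in Cd offspring. The median of the mean number of reads per library was 8.7, 13.6 and 75.2 in the same order. Hist1h1c was counted over 1561, Hist3h2a over 1990 and Hist1h2bc over 728 bases, and Hist1h4c over 312 bases. Histone genes also share sequence with each other: the median member shared 32.2% of its stretches of 100 bases with another gene, 22 members shared over 50%, and 7 shared none. Hist2h2aa2 shared 100%, Hist1h4m 88.1% and Hist1h4n 80.7%, so that reads cannot be assigned with certainty among such copies, whereas Hist1h1c shared 5.1%, Hist1h4c 14.0%, Hist1h2bc 25.4% and Hist3h2a 29.8%. How reads with several matches were treated is not stated. Among the 22 tested members that shared at most 50%, 10 fell in control and 4 in Cd offspring.

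The members lie in clusters. Chromosome 13 held 50 of the 65, chromosome 3 held 10, chromosome 11 held 3 and chromosomes 6 and 15 held 1 each. In control offspring 7 of 19 tested members on chromosome 13, 3 of 9 on chromosome 3 and 3 of 3 on chromosome 11 fell. In Cd offspring 3 of 19, 1 of 9 and 2 of 3 fell in the same order. The 3 on chromosome 11 were Hist3h2a, Hist3h2ba and Hist3h2bb-ps, the last with 18 reads against 1 read in control offspring. Many H2A and H2B genes start back to back. Hist3h2bb-ps and Hist3h2a start 172 bases apart and had log2 fold changes of −2.74 and −1.36 in control offspring, and of −2.61 and −1.44 in Cd offspring. Hist2h2ac and Hist2h2be start 191 bases apart and had log2 fold changes of −1.83 and −0.64 in control offspring, and of −0.60 (−1.12 to −0.078 with each library left out) and −0.57 in Cd offspring. Hist1h2bc starts 239 bases from Hist1h2ac, which was below the limit of the test. The noncoding gene Gm51864, which the deposited table lacks, overlaps all 462 bases of the RefSeq span of Hist3h2ba. On the same strand, the gene Trim17 overlaps all 508 bases of the RefSeq span of Hist3h2a. Trim17 was at 0.232 and 0.402 RPKM in unstimulated and at 0.766 and 1.16 RPKM in stimulated control cells. In Cd offspring it was at 0.46 and 0.869 against 1 and 0.747 RPKM, with overlap. Its values were thus higher without overlap in stimulated control cells, where those of Hist3h2a were lower, and were not separated in Cd offspring. The strand of the counting is not stated.

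Promoters were taken from RefSeq (GRCm38.p6) as 300 bases around the annotated start, for 58 of the 65 members. Letters were searched on both strands, and a match is a description. The letters CCAAT were found in 48 of the 58 promoters, against 41.1% of 27025 genes, including 15 of 15 H2A, 15 of 15 H2B, 9 of 9 H3 and 6 of 7 H1 but 3 of 12 H4 promoters. The letters TATAAA were found in 31 of 58, against 15.7% of all genes. The octamer ATTTGCAT was found in 5 H2A and 6 H2B promoters and in no other member, against 1.97% of all genes. The letters AAACACA of the H1 box were found in 5 of 7 H1 promoters, 1 H2A and 1 H2B promoter, against 8.22% of all genes. Hist1h1c, which fell, and Hist1h1e, which did not pass the test, both had the H1 box and CCAAT. The promoters of these 2 genes and of Hist3h2a and Hist2h2ac, which fell in control offspring, are shown in the direction of the gene, with matches to any of the letters, or to their reverse complement, in capitals. They are at chr13:23738557-23738856 (Hist1h1c, plus strand), chr13:23622509-23622808 (Hist1h1e, minus strand), chr11:58954435-58954734 (Hist3h2a, plus strand) and chr3:96220831-96221130 (Hist2h2ac, minus strand).
Hist1h1c: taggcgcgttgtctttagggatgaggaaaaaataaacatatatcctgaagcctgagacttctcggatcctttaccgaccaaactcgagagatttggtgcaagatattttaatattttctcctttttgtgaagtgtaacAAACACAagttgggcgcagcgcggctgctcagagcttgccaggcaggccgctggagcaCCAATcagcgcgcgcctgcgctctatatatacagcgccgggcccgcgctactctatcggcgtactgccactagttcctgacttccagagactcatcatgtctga
Hist1h1e: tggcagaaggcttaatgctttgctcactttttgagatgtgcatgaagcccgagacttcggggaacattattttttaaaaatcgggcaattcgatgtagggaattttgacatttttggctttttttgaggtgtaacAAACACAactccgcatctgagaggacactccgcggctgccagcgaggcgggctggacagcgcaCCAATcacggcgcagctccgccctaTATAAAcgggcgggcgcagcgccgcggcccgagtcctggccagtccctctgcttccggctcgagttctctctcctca
Hist3h2a: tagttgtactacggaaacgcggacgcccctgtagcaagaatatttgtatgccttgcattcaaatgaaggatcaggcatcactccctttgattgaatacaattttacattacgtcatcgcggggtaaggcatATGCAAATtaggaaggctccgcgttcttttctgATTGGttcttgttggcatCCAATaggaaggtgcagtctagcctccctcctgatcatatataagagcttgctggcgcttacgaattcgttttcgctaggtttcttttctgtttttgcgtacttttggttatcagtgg
Hist2h2ac: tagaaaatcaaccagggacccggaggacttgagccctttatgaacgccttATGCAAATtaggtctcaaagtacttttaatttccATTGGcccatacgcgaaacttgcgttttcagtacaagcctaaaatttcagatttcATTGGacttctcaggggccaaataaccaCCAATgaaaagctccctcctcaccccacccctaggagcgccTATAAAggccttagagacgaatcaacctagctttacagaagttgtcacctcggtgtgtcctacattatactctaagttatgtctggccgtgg

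Histone genes made also outside S phase were compared as a list of 12 genes, of which 9 were tested. The list holds H1f0, and its other 11 genes are not members. In control offspring 2 fell and 0 rose (limma, with a median log2 fold change of −0.06), and in Cd offspring 0 passed in either direction. At an unadjusted p under 0.05 in limma, 3 were higher and 4 lower in Cd offspring, and voom called 0. H2afz, a variant found at gene starts, was at 21.1 and 21.5 RPKM in unstimulated and at 8.47 and 10.9 RPKM in stimulated control cells, and fell by 1.14 on the log2 scale (adjusted p = 7.61e-05), or by 0.96 without replicate 6 of the stimulated control cells. Cenpa, the H3 variant of centromeres, was at 17.5 and 18.0 against 7.03 and 8.38 RPKM and fell by 1.2 (adjusted p = 4.66e-05). In Cd offspring both were lower by less than 2-fold, with log2 fold changes of −0.86 and −0.92, and Cenpa passed the limit without replicate 7 of the unstimulated Cd cells (−1.05). H2afx had a log2 fold change of 0.03, H3f3a of −0.35 and H3f3b of −0.02 in control offspring, and none was called.

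Of 22 genes for the synthesis, processing and decay of histone mRNA, 21 were tested, and 1 was called in control offspring, as lower, and 0 in Cd offspring, where limma gave an unadjusted p under 0.05 for 10 as higher and 4 as lower and voom called 1. Rnu7, the U7 small nuclear RNA, was counted over 62 bases. Its few reads came from libraries of polyadenylated RNA and need not follow the level of the U7 RNA in the cells. Rnu7 had 25 and 21 reads in control cells before stimulation and 2 and 8 after it, and fell by 2.50 on the log2 scale (adjusted p = 0.00764). That call ended without either unstimulated control library (0.0393 and 0.0341), replicate 6 of the stimulated control cells (0.0404) or either unstimulated Cd library (0.0111 and 0.011), and with no filter, no trend or a replicate block by number (0.0141, 0.0195 and 0.0129). In Cd offspring Rnu7 had a log2 fold change of −2.11 (adjusted p = 0.016), and was called by voom (0.00236), with a replicate block within exposure (0.00536), and without replicate 6 of the stimulated Cd cells (0.00764) or either stimulated control library (0.0066 and 0.0065). Slbp, whose protein binds the stem-loop, was at 34.2 and 34.0 against 45.8 and 40.5 RPKM, a log2 fold change of 0.34 (adjusted p = 0.00318). Npat, an activator of histone transcription, had a log2 fold change of 0.70 (adjusted p = 0.000297). Both were under the 2-fold limit, as were Casp8ap2 with 0.20, Lsm11 with 0.14 and Lsm10 with 0.03.

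Among genes of proteins that carry histones and among genes of DNA replication, more were called as higher than as lower. Over all genes tested, 11.5% were called as higher and 7.17% as lower in control offspring, and 11.4% and 7.24% in Cd offspring. Of 24 chaperone and import genes, all tested, 7 rose and 0 fell in control offspring, and 6 rose and 0 fell in Cd offspring. At an unadjusted p under 0.05 in limma, 5 were lower in control and 4 in Cd offspring, and voom called 0 as lower in either. Chaf1a, a subunit of the assembly factor that places histones on new DNA, was at 0.84 and 0.723 against 7.14 and 5.63 RPKM in control offspring and rose by 2.87 on the log2 scale. Hat1, which acetylates new H4, rose by 1.72 and the importin gene Ipo4 by 1.63, while Asf1b with 0.83 and Nasp with 0.77 were under the 2-fold limit, which Asf1b passed without replicate 7 of the stimulated control cells (1.003). Of 33 tested genes of S phase entry and DNA replication, out of 36 found, 22 rose and 1 fell in control offspring, and 20 rose and 0 fell in Cd offspring, where voom called 1 as lower and limma gave 3 as lower at an unadjusted p under 0.05. Uhrf1 rose by 3.6, Tk1 by 2.15, Mcm6 by 1.95 and E2f1 by 1.47 in control offspring, and E2f2 fell by 1.15. With 1 RPKM added before taking logs, E2f2 was at −0.94 in control offspring, under the 2-fold limit. In Cd offspring E2f2 was at −0.91, and at −1.03 without replicate 6 of the unstimulated cells. Pcna had a log2 fold change of 0.01, Ccne2 of −0.52 and Mki67, a marker of dividing cells with a mean of 0.655 RPKM, of −0.94 (adjusted p = 0.0304), and none of the 3 was called by limma, while voom called Mki67 as lower (−1.12). The median log2 fold change in control offspring was 1.35 over the replication list and 0.56 over the chaperone list, against −1.11 over the 32 histone members. Of the 87 tested genes of these 4 lists, limma called 0 between Cd and control offspring in unstimulated cells, with 7 at an unadjusted p under 0.05 and 1 called by voom, H1f0, which the first list also holds.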

How the data were processed

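The authors used Subread for alignment to mm10 and featureCounts for counts on RefSeq transcripts; versions, strand and the handling of reads with several matches are not stated. The deposited table holds log2 values, log2(RPKM + 1) + 0.0001, a scale read from the values, and was turned back into RPKM. Whole reads and library totals (15542732 to 25486791, median 19434588) were worked out from the steps that low values take between libraries. The 12605 genes with a mean of at least 0.5 RPKM were fitted as log2(RPKM + 0.1) with limma 3.58.1 under R 4.3.3, as means of the 4 groups with empirical Bayes moderation with a trend and Benjamini-Hochberg adjustment. Responses to stimulation were called at an adjusted p under 0.01 and over 2-fold, and Cd differences at an adjusted p under 0.05. An exact permutation test of 2 against 2 libraries cannot give a two-sided p below 0.333. Exact intervals (95%) are for counting error alone. The pipeline was tested on simulated data. Members were matched to RefSeq by gene ID, stem-loops and shared sequence were read from GENCODE M21, and promoters from RefSeq GRCm38.p6. Plots were drawn with matplotlib 3.10.9, and tables made with pandas 2.3.3 and numpy 2.4.6 in Python 3.11.15.

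Genes named were, of the members, up to 8 called with the largest change per comparison, the 2 most abundant of each type and every tested H1 gene. Of the other lists they were a preset group and up to 2 rises and 2 falls at a mean of at least 5 RPKM. Members and lists were chosen with earlier results of these data known. Alternatives were pseudocounts of 0.5 and 1 RPKM, no filter or one at 1 RPKM, 2 scalings, a replicate block, no trend, only the libraries of a comparison, voom on recovered reads and each library left out.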

Additional observations from a re-analysis of the deposited data

Results flagged for a closer look

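Among the tested members, for H1f0 and Hist2h3b every stimulated library lay on one side of every unstimulated library in each offspring, but not on the same side. For H1f0 the stimulated control libraries were below and the stimulated Cd libraries above the unstimulated ones, and the log2 difference between the responses was 0.40, with a limma adjusted p of 0.372. For Hist2h3b the pattern was the same, with a log2 difference of 1.93 and an adjusted p of 0.287. The test of the difference itself thus called neither gene, and neither was called for stimulation in control or in Cd offspring (log2 fold changes of −0.06 and 0.34 for H1f0, and of −1.06 and 0.87 for Hist2h3b). The unstimulated Cd libraries of H1f0 were its lowest, at 7.73 and 6.41 RPKM, and those of Hist2h3b were at 0.752 and 0.474 RPKM (6 and 4 reads). Below the limit of the test, Hist4h4 showed the same pattern. It was at 0.309 and 0.277 against 0.223 and 0.214 RPKM in control and at 0.125 and 0.0846 against 0.253 and 0.3 RPKM in Cd offspring. Hist2h3c2, also below the limit, showed the reverse. The share of all genes with opposite sides is not given, so these genes have no comparison.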

How the results depend on the processing

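In control offspring the number of members called, 13, was between 10 and 16 under the other settings except with a pseudocount of 1 RPKM, where it was 6, and with each library left out it was between 7 and 12. The median log2 fold change of −1.11 was −0.77 and −0.58 with pseudocounts of 0.5 and 1 RPKM, −0.72 with no filter and −1.26 with a filter at 1 RPKM, and between −1.18 and −0.98 with each library left out. Without a filter more scarce members were tested, and a larger pseudocount shrinks fold changes of low values. In Cd offspring the number of 6 members was between 4 and 9 under the other settings and between 4 and 7 with each library left out. The median of −0.73 was −0.54 and −0.48 with pseudocounts of 0.5 and 1 RPKM, −0.49 with no filter, and −0.87 over members sharing at most 50% of their stretches of 100 bases, and between −0.80 and −0.57 with each library left out. That choice of members, and leaving out H1f0 and Hist3h2bb-ps, were chosen after seeing the data.

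With a replicate block by number or within exposure, 12 members were called in control and 7 in Cd offspring. In control offspring each block lost 2 of the 13 calls and gained 1, and in Cd offspring each gained Hist1h1a. The quantile normalization moved the median of all genes in control offspring from 0.07 to −0.03, and called 13 and 8 members. Between Cd and control offspring in unstimulated cells, 1 member (H1f0) was called by voom, and 0 to 1 with each library left out, while the median was between −0.33 and 0.085. The median difference between the responses was between 0.13 and 0.53 with each library left out.

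Sums by type without the most abundant member had log2 ratios of stimulation in control offspring of −1.38 (H1), −1.47 (H2B) and −1.50 (H4), and in Cd offspring of −1.06 (H1), −0.50 (H2A) and −1.52 (H2B). For H1 the ratio of Cd to control in stimulated cells was then 0.24. With each library left out, stimulation ratios in control offspring were between −1.36 and −1.13 (H2B) and between −1.54 and −1.06 (H4). In Cd offspring they were between −0.62 and −0.15 (H1), −1.22 and −0.49 (H2A) and −0.43 and 0.041 (H3). Cd ratios in unstimulated cells were between −0.48 and −0.004 (H1), −0.47 and 0.25 (H2A) and −0.44 and 0.034 (H3), and in stimulated cells between −0.027 and 0.20 (H2B) and 0.25 and 0.72 (H4).

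Among named members, directions turned mostly where values lay near 0: Hist1h1e in control offspring by voom (0.012) and, with each library left out, Hist1h1e (−0.16 to 0.15) and Hist1h3a (−0.26 to 0.45) in control offspring and Hist1h3a (−0.42 to 0.65), Hist1h3e (−0.35 to 0.071) and Hist1h4d (−0.43 to 0.11) in Cd offspring. Hist1h2ao, at 0.66 in Cd offspring, also turned (−0.093 to 1.42), as did Hist1h2ap in control offspring (−0.44 to 0.50). Replicate 6 of the stimulated control cells left out gave 0.052 for Hist1h1e. The cause was not tested. Of 358 alternatives for named members in control offspring, 313 kept direction and call, 40 lost the call and 1 gained it; in Cd offspring 330 kept both, 11 lost and 14 gained it. Fits without 1 library leave a group with 1 sample, assumed to vary like the others. Using only the libraries of a comparison was impossible for the difference between the responses, and a block within exposure for the Cd comparisons. The few reads of most members limit the precision of single genes.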

Other observations

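Members below the limit of the test were also fitted without that limit. Of these 33 members, limma called 5 as lower in control offspring (Hist1h2ac, Hist1h2ae, Hist1h2bh, Hist1h2bq and Hist1h3f) and 3 as lower in Cd offspring (Hist1h2ac, Hist1h2ae and Hist1h2be), named after their values were seen. These were 15.2% and 9.09% of the 33, where 5.98% and 6.23% of all 17794 genes fitted without the limit were called as lower. Their median log2 fold change was −0.30 in control and −0.17 in Cd offspring. Hist1h2ac and Hist1h2bc, which start back to back, were thus both called without the limit.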
